A study of Mus musculus with 48 samples.

Results

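Ptgds and Apod are the genes of 2 lipocalins, small secreted proteins that fold into a barrel and carry lipids in its pocket. They were 2 of the 15782 genes in the Q3-normalized tables, and both were chosen by their FLT-SAL against GC-SAL values in these same mice. For that reason their difference between saline mice in flight and on the ground is given as a description. The comparisons of either saline group with its BuOE counterpart share mice with that choice and are described without a test as well, and both genes were tested between flight and ground in the BuOE mice and between regions.

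Ptgds encodes lipocalin-type prostaglandin D2 synthase, which converts prostaglandin H2, the product of the cyclooxygenases, into prostaglandin D2. In the brain it is made by oligodendrocytes, by cells of the leptomeninges and by the epithelium of the choroid plexus, is released into the cerebrospinal fluid, and is known for the part of prostaglandin D2 in sleep. Apod encodes apolipoprotein D, a carrier of arachidonic acid and steroids that oligodendrocytes and other glia make, and its RNA is known to rise in the ageing and the injured brain.

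Levels come from GeoMx digital spatial profiling, in which a tagged probe for each gene hybridizes to a tissue section and light frees the tags of a chosen area of illumination (AOI) for counting. Male C57BL/6 mice, 12 in all, formed 4 groups of 3. They were 10 weeks old at launch, before the 35 days of flight or ground housing. FLT-SAL mice spent 35 days on the International Space Station with saline, FLT-BuOE mice flew with BuOE (MnTnBuOE-2-PyP5+, a manganese porphyrin antioxidant) at 1 mg/kg in 0.2 mL under the skin, first given 7 days before launch and then every week. GC-SAL and GC-BuOE mice stayed in flight cages on Earth with the same food, light and injections, on a schedule that began 3 days later. Flight mice reached the laboratory up to 20 hours after splashdown, so the flight groups hold landing and readaptation as well as flight. Each mouse gave 1 AOI in each of 4 regions, namely CA (labelled Cornu Ammonis 1), the dentate gyrus (DG), the frontal cortex (FCT) and a further cortical area (CT), 48 AOIs in all. All sections of a group lay on 1 slide, so the slide and the group cannot be told apart in any comparison between groups.

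Probe totals were 322629 to 1579380 per AOI (median 652040), and the saline flight mice lay at the upper end in DG, FCT and CT. Each AOI had been scaled by the authors to the same upper quartile, 40.02 units in every AOI. Region markers of the hippocampal areas matched the labels: Prox1, a dentate granule cell gene, had a mean of 112 units in DG against 27.2 to 32.2 elsewhere, and Wfs1, a CA1 gene, had 91.8 in CA against 29.5 to 31.1. An AOI was a whole area with many cell types, and in such samples fewer cells of a type and less RNA per cell cannot be told apart.

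In the GENCODE annotation of GRCm38, Ptgds (ENSMUSG00000015090.13) lies on the reverse strand at chr2:25466709-25470046, with 7 exons in a transcript of 901 bases. Apod (ENSMUSG00000022548.14) lies on the reverse strand at chr16:31296192-31314808, with 5 exons in a transcript of 1070 bases. The stretches before their RefSeq transcription starts are shown because both genes turned out to be higher in the same cortical areas. They are from RefSeq on GRCm38.p6, 5′ to 3′ on the strand of the gene, at chr2:25469843-25469999 for Ptgds (157 bases, cut short where an annotated exon begins) and chr16:31314809-31315058 for Apod (250 bases). The Ptgds stretch lies inside the GENCODE gene, whose outermost start on the reverse strand is at 25470046. It is thus before the RefSeq start but after that GENCODE start. Capitals mark the E-box letters CANNTG, the motif that basic helix-loop-helix factors read.
Ptgds: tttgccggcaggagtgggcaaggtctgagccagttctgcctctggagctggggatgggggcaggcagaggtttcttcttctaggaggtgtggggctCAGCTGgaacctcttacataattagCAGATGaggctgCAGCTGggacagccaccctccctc
Apod: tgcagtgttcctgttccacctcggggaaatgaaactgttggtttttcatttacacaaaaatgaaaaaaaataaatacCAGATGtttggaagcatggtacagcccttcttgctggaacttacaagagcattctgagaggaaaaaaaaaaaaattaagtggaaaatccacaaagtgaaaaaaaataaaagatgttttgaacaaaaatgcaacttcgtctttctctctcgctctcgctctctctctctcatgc

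The Ptgds stretch has 3 E-boxes and a GC content of 59.2%, and the Apod stretch has 1 and a GC content of 36.4%. E-box letters are common, since 66.2% of 32851 promoters hold at least 1 of them in the 250 bases before the start on either strand. The Sox core ACAAAG occurs once before Apod and in 16.5% of promoters. The glucocorticoid receptor half-site AGAACA (16.1% of promoters), TATAAA (12.4%) and the CREB core TGACGTCA (1.55%), searched on both strands, are not among these letters for either gene.

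Both genes were read above background in most AOIs. Ptgds ran from 41.4 to 524 units (median 109) over the 48 AOIs, which is 2.47 to 33.8 times the negative-control value of the same AOI and rests on 24 to 799 counts. Apod ran from 16.9 to 238 units (median 45.8), on 11 to 334 counts. It was under 1.5 times the negative control in 3 of 48 AOIs, all in CA, where GC-SAL mouse 1 was at 0.875 times, GC-SAL mouse 3 at 1.46 times and GC-BuOE mouse 3 at 1.39 times. Apod in CA is therefore close to background in part of the ground mice. Each gene had 1 probe, so the levels of one gene cannot be set against those of the other.

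Both lipocalins were higher in the cortex than in the hippocampal areas. Mean Ptgds over the 12 mice was 206 ± 138 units (SD) in FCT and 183 ± 96.4 in CT, against 92.3 ± 42.9 in CA and 91.4 ± 37.4 in DG. Mean Apod was 83.3 ± 58.8 in FCT and 65.2 ± 35.8 in CT, against 44.03 ± 14.0 in CA and 33.7 ± 6.46 in DG. CA and DG were close for Ptgds, and mice differed most in FCT, where the highest mouse stood 10.9 times above the lowest for Ptgds and 8.80 times for Apod.

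Regions were compared over all 48 AOIs with limma, averaged over the 4 groups, with the mouse as a random block. The average includes the FLT-SAL mice, whose values chose the genes. Their means were highest in FCT and CT for both genes, so these tests draw in part on the choosing values. Without these 3 mice, 11 comparisons kept their direction and side of the threshold, and 1 turned its sign. Over fits without 1 mouse or these 3, Ptgds differences fell to 0.68 (FCT against DG), 0.69 (CT against DG), 0.90 (FCT against CA) and 0.89 (CT against CA). Ptgds was higher in FCT than in CA by 0.99 on the log2 scale (95% CI 0.78 to 1.20, adjusted p = 1.87e-13, limma) in 12 of 12 mice, and than in DG by 0.99 (0.78 to 1.20, adjusted p = 1.7e-13, limma) in 11 of 12. It was higher in CT than in CA by 0.95 (0.74 to 1.16, adjusted p = 1.08e-12, limma) in 12 of 12 mice and than in DG by 0.94 (0.73 to 1.15, adjusted p = 9.04e-13, limma) in 11 of 12. An exact two-sided sign-flip permutation over the mice gave p = 0.000488 for both comparisons with CA, the smallest that 12 mice can give, and p = 0.000977 for both with DG. FCT and CT differed by 0.04 (-0.17 to 0.25), and DG and CA by 0.01 (-0.20 to 0.22), so within neither pair did the regions differ beyond their spread.

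Apod was higher in FCT than in DG by 1.05 (0.79 to 1.30, adjusted p = 3.73e-11, limma) and than in CA by 0.73 (0.48 to 0.98, adjusted p = 3.03e-06, limma), in 10 and 9 of 12 mice. It was higher in CT than in DG by 0.82 (0.57 to 1.08, adjusted p = 8.6e-08, limma) in 12 of 12 mice. CT exceeded CA by 0.51 (0.25 to 0.76, adjusted p = 0.00163, limma), which fell short of the 1.5-fold change that a call required. Over fits without 1 mouse or the 3 FLT-SAL mice, Apod differences fell to 0.84 (FCT against DG) and 0.59 (CT against DG). Against CA they fell to 0.575 (FCT, under 1.5-fold) and 0.36 (CT). FCT and CT differed by 0.22 (-0.03 to 0.48), and DG and CA by -0.32 (-0.57 to -0.06, adjusted p = 0.0595, limma), a difference that turned to 0.21 once the negative control was subtracted. A comparison was called where the adjusted p was under 0.05 and the change more than 1.5-fold, which over all genes called 4.54% for FCT against DG, 3.28% for FCT against CA, 5.79% for CT against DG, 3.98% for CT against CA, 4.1% for DG against CA and 0.101% for FCT against CT. Of the 12 comparisons of both genes 7 were called, and for all 7 the cortex was the higher.

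**Figure D1:**
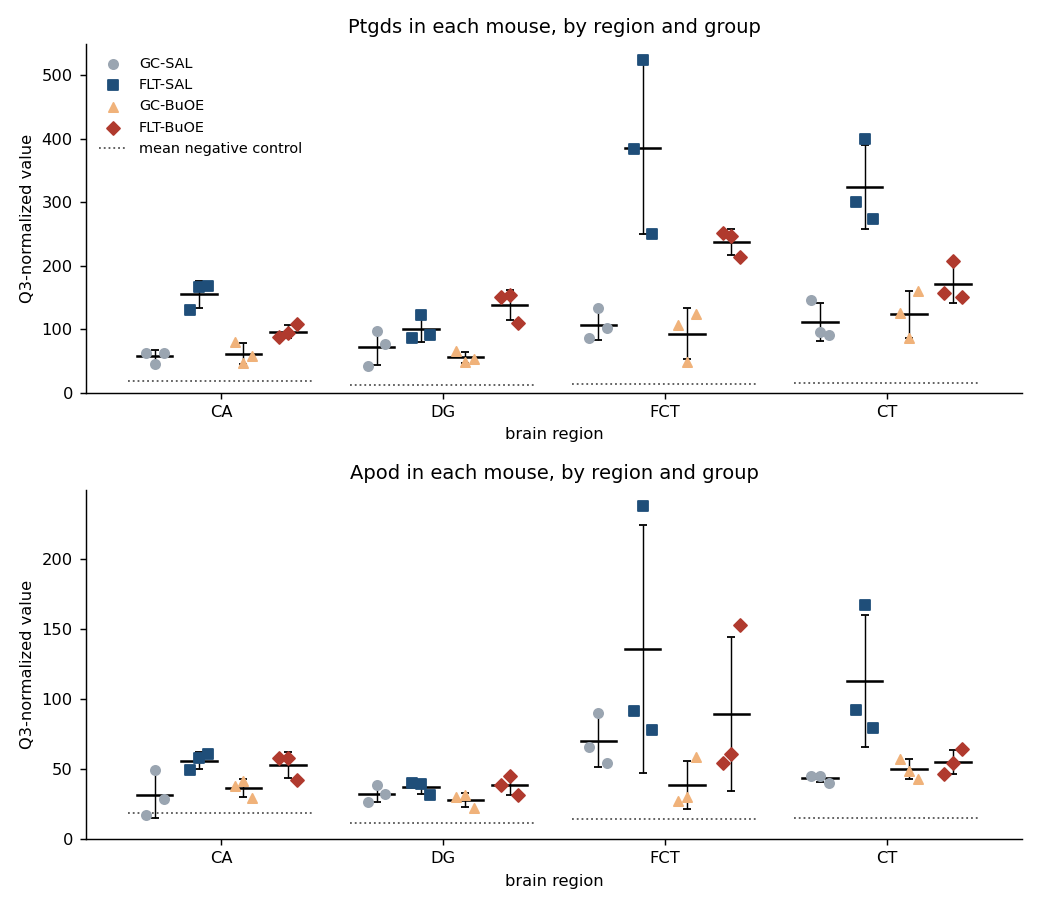
Q3-normalized value of Ptgds (top) and Apod (bottom) in each mouse, by brain region and group. Each point is 1 mouse, black bars are the group mean with its SD (n = 3), and dotted lines the mean negative control of the region; Ptgds reached 524 units in FCT of an FLT-SAL mouse and stayed at or under 168 in CA.

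Among saline mice, whose values chose the genes, Ptgds was higher in flight in CA, FCT and CT, with no overlap between the groups. In CA the FLT-SAL mice had 131, 166 and 168 units and the GC-SAL mice 63.1, 45.7 and 62.3. In FCT they had 384, 524 and 250.5 against 85.3, 133 and 102, and in CT 301, 399.7 and 274 against 146, 95.9 and 91.2. The differences of mean log2 values were 1.43, 1.80 and 1.56. In DG the groups overlapped, with 86.0, 123 and 91.5 units in flight and 41.4, 97.7 and 76.0 on the ground, a difference of 0.54.

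Apod in the same saline mice was without overlap in CT alone, with 92.4, 167 and 79.5 units in flight against 44.9, 45.1 and 40.02 on the ground, a difference of 1.29. In FCT it had 91.5, 238 and 77.8 units against 65.3, 90.2 and 54.1 (0.79), and FLT-SAL mouse 2 was the highest of all 48 AOIs. In CA the values were 49.4, 57.5 and 60.8 against 16.9, 49.6 and 28.2 (0.93), and in DG 40.02, 39.0 and 31.4 against 26.2, 38.2 and 32.0 (0.20). Over all genes the share higher in flight without overlap was 7.55% for CA, 7.39% for DG, 7.41% for FCT and 5.14% for CT. Nothing is read from these counts, since this contrast chose the genes.

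The BuOE mice took no part in that choice, and in them Ptgds was again higher in flight. It rose in DG and FCT, by 2.43 and 2.73 times on the scale of log2(value + 1). In CA the difference was smaller and did not pass, and in CT the groups overlapped. Apod was higher by its mean in all 4 regions but passed in none.

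In DG, Ptgds was at 150.1, 154 and 110.1 units in the FLT-BuOE mice and at 65.6, 48.8 and 53.4 in the GC-BuOE mice. Every flight mouse lay above every ground mouse. The means were 138 ± 24.3 and 55.9 ± 8.69 units (SD, n = 3), and the log2 difference was 1.28 (moderated SE 0.19, 95% CI 0.91 to 1.66, adjusted p = 8.31e-05, limma). The call rule took 0.0444% of all genes as higher in DG, and 5.16% of genes were higher without overlap.

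In FCT, Ptgds was at 252, 247 and 214 units in FLT-BuOE and at 107, 48.2 and 124 in GC-BuOE, again without overlap. The means were 238 ± 20.6 and 93.0 ± 39.7 units (SD, n = 3), and the log2 difference was 1.45 (moderated SE 0.21, 95% CI 1.02 to 1.88, adjusted p = 0.000362, limma). GC-BuOE mouse 2 was well under the other ground mice, and without it the difference was 1.04 (adjusted p = 0.0254, limma). Over all genes in FCT, 0.0127% were called higher and 3.71% were higher without overlap. This call was lost with DESeq2 (log2 difference 1.402, adjusted p = 0.691) and with a robust moderation of the spread (adjusted p = 0.494, limma), whereas the call in DG held with both (adjusted p = 0.00324 with DESeq2 and 0.0114 with robust limma).

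In CA the FLT-BuOE mice had 86.9, 93.4 and 108 units of Ptgds and the GC-BuOE mice 80.0, 46.7 and 57.3. The groups did not overlap, as for 5.09% of genes, and their means were 96.1 ± 10.7 and 61.4 ± 17.0 (SD, n = 3). The log2 difference of 0.67 (95% CI 0.31 to 1.03) missed the adjusted threshold (adjusted p = 0.213, limma), which 0.019% of genes passed as higher. In CT the values were 156, 207 and 151 against 125, 85.4 and 160.1, with overlap and a log2 difference of 0.50 (0.13 to 0.87, adjusted p = 0.576, limma); here 0% of genes were called higher and 5.43% were higher without overlap.

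Apod under BuOE was at 58.0, 57.8 and 41.8 units in flight and 37.9, 41.4 and 29.2 on the ground in CA, without overlap (log2 difference 0.52, 95% CI 0.05 to 1.00, adjusted p = 0.643, limma). In FCT it was at 54.3, 60.5 and 153 against 27.04, 29.6 and 58.2, a log2 difference of 1.12 (0.55 to 1.69, adjusted p = 0.234, limma). FLT-BuOE mouse 3 and GC-BuOE mouse 3 were the highest of their groups there, and the difference was 0.65 without the former and 1.46 without the latter. In DG the values were 38.4, 45.0 and 31.1 against 30.0, 31.3 and 22.2 (0.44, 0.02 to 0.86, adjusted p = 0.573, limma), and in CT 46.5, 54.5 and 63.9 against 57.2, 48.7 and 43.1 (0.14, -0.24 to 0.52, adjusted p = 0.926, limma). The 8 differences of both genes come from the same mice. Of them, 8 were above 0, 7 had an unadjusted p under 0.05 with limma's moderated spread and 2 were called. The shares of all genes above 0 or at that unadjusted p are not given, so nothing is read from the 8 or the 7. The same holds for later counts of genes at an unadjusted p. With the own spread of each gene (limma without moderation), unadjusted p for Ptgds was 0.0151, 0.00338, 0.00616 and 0.114 in CA, DG, FCT and CT. For Apod it was 0.168, 0.0576, 0.0809 and 0.607 in the same order.

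The spread behind these calls was smaller than that of Ptgds itself. limma draws the spread of each gene toward that of all genes. For Ptgds the SD of a single mouse around its group mean was 0.38 on the log2 scale in DG and 0.48 in FCT, and limma used 0.23 and 0.26. With the own spread of each gene, 0 genes passed in any region or contrast (limma without moderation), and the adjusted p of Ptgds was 0.381 in DG and 0.555 in FCT (unadjusted p = 0.00338 and 0.00616, from the own-spread fit across all genes).

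**Figure D2:**
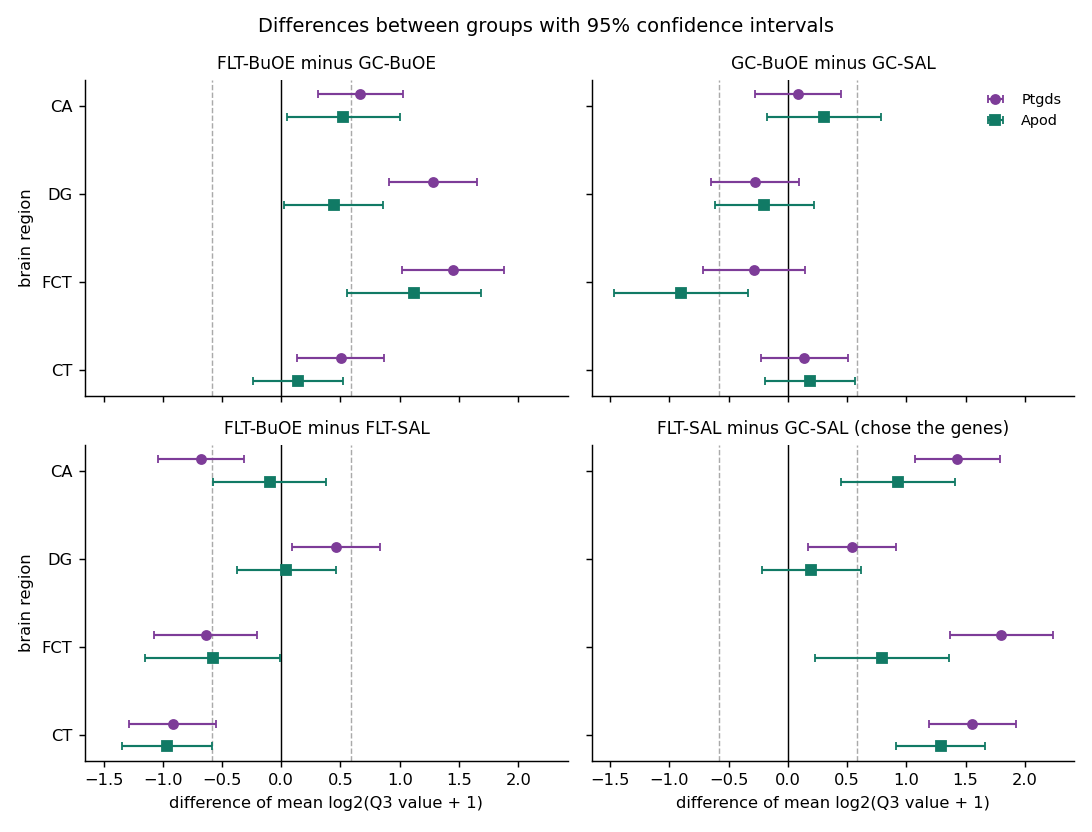
Difference of mean log2(Q3 value + 1) between groups (horizontal axis) for Ptgds (circles) and Apod (squares) in the 4 regions, 1 panel per contrast, with 95% confidence intervals and dashed lines at a 1.5-fold change. Intervals rest on limma's moderated spread. Under BuOE, Ptgds in DG (1.28) and FCT (1.45) lay beyond the line with their whole moderated interval. The moderated SE was 0.19 and 0.21, and the SE from the gene's own spread was 0.31 and 0.39. The lower right panel shows the contrast that chose the genes. The panels of BuOE against saline share its mice and are descriptions.

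Whether the flight difference under BuOE itself varied between regions was tested in the 48-AOI fit. For Ptgds it was larger in FCT than in CT by 0.95 (95% CI 0.35 to 1.54, adjusted p = 0.962, limma) and smaller in CT than in DG by 0.78 (a difference of -0.78, -1.38 to -0.19, adjusted p = 0.798, limma). FCT exceeded CA by 0.78 and DG exceeded CA by 0.62, while FCT and DG differed by 0.17 and CT and CA by -0.17. Apod differed most between FCT and CT, by 0.98 (0.26 to 1.70, adjusted p = 0.999, limma). Of the 12 comparisons of both genes 5 had an unadjusted p under 0.05 and 0 passed after adjustment with limma, the only tool run here. Over all genes the adjusted threshold was passed by 0% for FCT against CT, CT against DG and DG against CA, by 0.00634% for FCT against DG, 0.0127% for FCT against CA and 0.0253% for CT against CA. A difference of the flight effect between regions is therefore not shown.

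Between BuOE and saline on the ground, both genes overlapped between the groups in all 4 regions. The GC-SAL mice also entered the choosing contrast, so these values are a description. Ptgds in GC-BuOE differed from GC-SAL on the log2 scale by 0.08 for CA, -0.28 for DG, -0.29 for FCT and 0.14 for CT, and Apod by 0.30, -0.20, -0.90 and 0.19 in the same order. The largest of these was Apod in FCT, with a mean of 38.3 ± 17.3 units with BuOE and 69.9 ± 18.5 with saline (SD, n = 3). Over all genes these groups did not overlap, in either direction, for 9.55%, 9.76%, 10.8% and 8.2%, again by region.

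In flight, both lipocalins had lower values with BuOE than with saline in CT. The FLT-SAL mice were the high group of the choosing contrast, so this comparison shares its high values with the choice and is a description. Ptgds in CT was at 156, 207 and 151 units in FLT-BuOE against 301, 399.7 and 274 in FLT-SAL, a log2 difference of -0.91. Apod was at 46.5, 54.5 and 63.9 against 92.4, 167 and 79.5, a difference of -0.96. Neither gene overlapped between the groups, and 5.99% of all genes in CT were lower with BuOE without overlap. The FLT-SAL mouse 2 was the highest for both genes, and without it the differences were -0.76 and -0.64. The AOIs differed as well, with 416 to 448 nuclei in 144580 square micrometres in FLT-BuOE against 549 to 598 in 224546 in FLT-SAL, and with probe totals of 545668 to 916917 against 988810 to 1440631. Their part in these differences was not tested.

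In CA, Ptgds was lower with BuOE by a log2 difference of -0.68, without overlap, as for 7.45% of genes. In FCT it differed by -0.64 and in DG by 0.46, with overlap in both, where 8.82% and 6.75% of genes were lower without overlap. Apod differed by -0.10 in CA, 0.04 in DG and -0.58 in FCT and overlapped in all of them. DG was the region where the BuOE flight mice had the highest Ptgds mean of the 4 groups, 138 units against 100.04 in FLT-SAL.

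Myelin genes were also lower with BuOE in CT in the same comparison. The comparison shares the FLT-SAL mice with the choosing contrast, and the lists were chosen with earlier results known, so it is a description. The list held 18 measured genes of oligodendrocytes and myelin, among them Mobp (myelin-associated oligodendrocyte basic protein) at 16.1 times the negative control. In CT, 4 of the 18 were called lower with BuOE in flight and 0 higher, where 0.0507% of all genes were called lower. edgeR and DESeq2 also called 4, but leaving out 1 mouse at a time gave 1 to 4, with 1 without FLT-SAL mouse 2 and 2 without FLT-BuOE mouse 1. The 4 included Mobp, lower by 1.21 on the log2 scale (225 ± 32.3 units against 526 ± 110, SD, n = 3). Also among them were Cldn11, a tight junction gene of myelin, lower by 1.04, and Mbp, myelin basic protein, lower by 0.81. The median of the list was -0.55, beside -0.02 for all genes. The summed myelin level was 966 to 1113 units in FLT-BuOE and 1671 to 2276 in FLT-SAL, so it separated the same mice as Ptgds and Apod. In GC-SAL the sum was 1079 to 1138 units. Differences of the list between FLT-SAL and GC-SAL in CT ran from -0.26 (Olig2) to 1.33 (Mobp). The part of the myelin genes in the lower lipocalin values was not tested.

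Between flight and ground under BuOE, where Ptgds rose in DG and FCT, the differences of the myelin genes were smaller. Of the 18, 0 were called in any region by limma, with 0, 2, 4 and 5 at an unadjusted p under 0.05 (CA, DG, FCT and CT), while edgeR and DESeq2 each called 1 in DG and 0 elsewhere. That gene was Mobp, higher in flight by 0.60 (95% CI 0.31 to 0.89, 168 ± 31.7 units against 110 ± 4.94, SD, n = 3, adjusted p = 0.0584, limma). The median differences of the list were 0.09, 0.19, 0.07 and -0.31 in the same order, beside medians of all genes between -0.04 and -0.00. In DG the summed myelin level was 830.5 to 1086 units in flight and 739 to 793 on the ground, without overlap, and in FCT it was 1138 to 1461 against 823 to 1391. In CT it went the other way from Ptgds, with 966 to 1113 units in flight and 1184 to 1429 on the ground.

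Markers of meningeal and choroid plexus cells were read close to background. The meningeal list (10 of 17 genes measured, 7 above 1.5 times the negative control) included Dcn, a matrix proteoglycan of fibroblasts, at 1.60 times the negative control and Mgp, a matrix protein, at 1.90 times. Its summed level was 233 to 253 units in FLT-BuOE and 213 to 230.1 in GC-BuOE in DG, without overlap, and 221 to 246 against 208 to 234 in FCT. The choroid plexus list had 6 of 10 genes, and its defining markers Ttr and Folr1 were not among the genes analysed here. That list summed to 136 to 163 units in flight and 119 to 132 on the ground in DG, also without overlap, and to 118 to 140.1 against 123 to 149 in FCT. Vessel wall genes, among them the endothelial genes Ly6c1 and Cldn5 at 4.04 and 2.60 times the negative control, had medians of 0.04 in DG and -0.29 in FCT. Of these 3 lists 0 genes were called by limma, edgeR or DESeq2 in any region, and at an unadjusted p under 0.05 limma had 0 meningeal, 0 choroid plexus and 1 vessel wall gene in DG and 3, 0 and 3 in FCT. Astrocyte genes were well measured, with the glutamate transporter Slc1a2 at 16.2 times the negative control and Aldoc, an aldolase, at 7.72 times. The list of 9 had medians of -0.10 in DG and -0.02 in FCT, with 0 called by limma, edgeR or DESeq2 and 1 and 0 at an unadjusted p under 0.05 (limma). The part of these cells in the Ptgds difference was not tested.

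Technical values of the same AOIs overlapped in DG, where FLT-BuOE had probe totals of 416744 to 628791 and a negative control of 10.4 to 11.9 units, and GC-BuOE had 564020 to 629956 and 9.24 to 12.3. In FCT the totals were 484300 to 793099 against 654566 to 966414, and the negative control was 12.05 to 12.95 units in flight against 13.1 to 14.5 on the ground, without overlap. The AOIs there covered 145393 square micrometres in flight and 163177 to 173293 on the ground. In CA the negative control was likewise lower in flight, 16.1 to 18.8 against 18.9 to 20.9. AOI areas there were 124517 to 142813 square micrometres in flight and 151322 to 181286 on the ground. In CT they were 144580 and 208860, with 416 to 448 and 470 to 570 nuclei. Sequencing saturation was 81.7% in DG of GC-BuOE mouse 3 and 90.5% or more in every other AOI. Their part in the Ptgds and Apod differences was not tested beyond subtracting the negative control, which changed no call of either gene in this contrast.

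Around Ptgds, the other genes of prostaglandin synthesis and signalling had medians near 0 between flight and ground under BuOE. Of 16 measured genes besides Ptgds, 0 were called in any region by limma, edgeR or DESeq2, with 2, 0, 0 and 1 at an unadjusted p under 0.05 in CA, DG, FCT and CT (limma), and the medians were -0.10, -0.04, -0.06 and 0.02. Ptgs1 and Ptgs2, the cyclooxygenases that supply the substrate, differed by 0.23 and 0.38 in DG and by -0.20 and -0.16 in FCT, at levels of 2.23 and 2.20 times the negative control. Ptges3, a chaperone also described as a prostaglandin E synthase, was well measured at 6.93 times the negative control and differed by -0.20 in DG and -0.21 in FCT. Hpgd, which breaks prostaglandins down, differed by 0.54 in DG, the highest of the list there, and by 0.05 in FCT. It was read close to background, at 1.55 times the negative control. Ptgdr2, a receptor of prostaglandin D2, was measured at 2.04 times the negative control, and Hpgds and Ptgdr were not among the genes analysed here.

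The remaining lipocalins and lipid carriers had no called gene in the same comparison. The 8 other lipocalins measured, among them Lcn2 (the siderophore carrier of inflammation), Rbp4 (the retinol carrier) and Apom (an apolipoprotein carrier of sphingosine phosphate), had medians of -0.06, -0.13, -0.12 and -0.15 in CA, DG, FCT and CT. Their levels were low, at 1.46 to 2.03 times the negative control. The 11 lipid carrier genes had medians of -0.05, 0.02, -0.09 and -0.02, and 3 of them were abundant. Apoe, the main lipoprotein of astrocytes, differed by 0.21 in DG and -0.09 in FCT, Clu, a secreted chaperone of lipoproteins, by 0.11 and -0.02, and Bsg, described as a receptor of apolipoprotein D, by 0.10 and 0.02. Of the 19 genes of both lists 0 were called in any region by limma, edgeR or DESeq2, with 1 lipocalin and 1 lipid carrier in DG and 0 in FCT at an unadjusted p under 0.05 (limma).

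Glucocorticoid-responsive genes, a sign of stress, had medians of -0.03, -0.04, 0.09 and 0.22 for CA, DG, FCT and CT, with 0 of 12 called by limma, edgeR or DESeq2 and 1, 4, 3 and 3 at an unadjusted p under 0.05 (limma). The highest positive differences over the 14 lists were 0.66 in DG, for the cell cycle inhibitor Cdkn1a, and 0.81 in FCT, for the collagen gene Col1a2 of the meningeal list. By size alone the lipocalin C8g, a subunit of complement component C8, stood further out in DG at -0.996 (12.2 ± 6.94 units against 23.5 ± 5.16, SD, n = 3, adjusted p = 0.244, limma), and was read at 1.46 times the negative control.

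**Figure D3:**
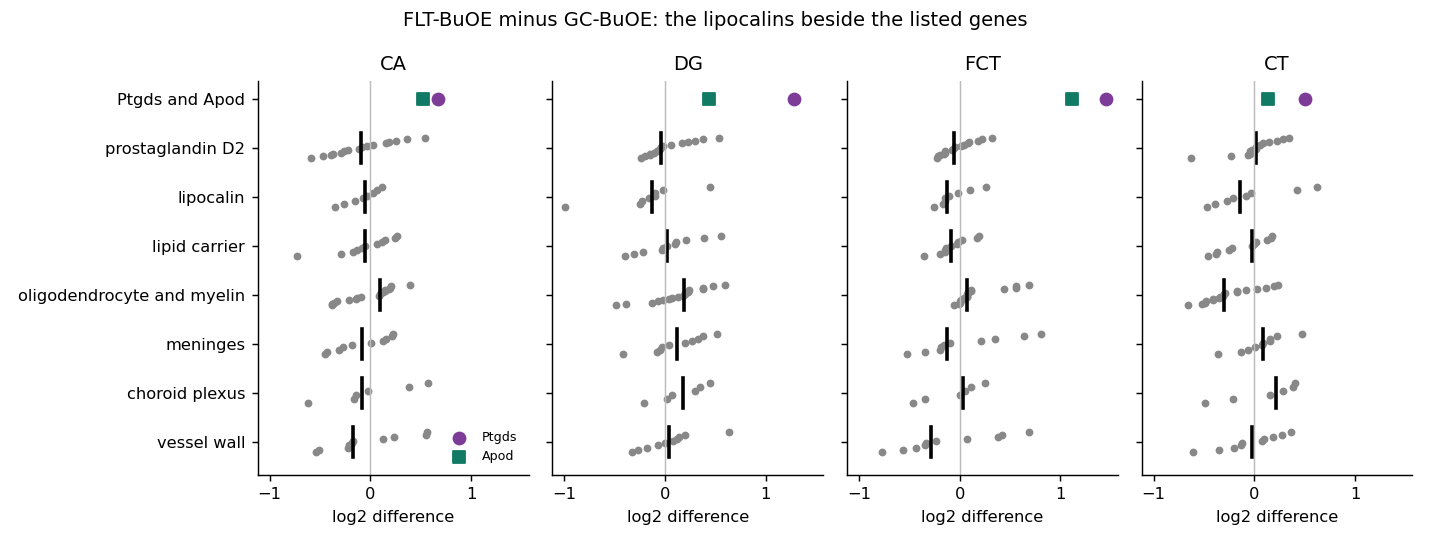
Log2 difference FLT-BuOE minus GC-BuOE (horizontal axis) of Ptgds and Apod (top row, coloured) and of each measured gene of 7 lists (grey points, black bar for the list median) in the 4 regions. In DG and FCT, Ptgds at 1.28 and 1.45 lay to the right of every listed gene, while list medians stayed between -0.29 and 0.19.

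Whether mice with more myelin also had more of the lipocalins was asked within groups. The mean of each group was subtracted, so that neither the choosing contrast nor the slide entered, and the 12 mice of a region were then compared. The highest values were in FCT, and none passed after adjustment. Ptgds had a Pearson r of 0.78 there (exact permutation within groups, two-sided, p = 0.0285, adjusted p = 0.514, n = 12) and a Spearman rho of 0.66 (exact permutation p = 0.0617, adjusted p = 0.925). Apod had an r of 0.78 (exact permutation p = 0.00849, adjusted p = 0.306, n = 12) and a rho of 0.66 (exact permutation p = 0.0648, adjusted p = 0.925). Without the 2 mice farthest from the median of the myelin list, r was 0.55 for Ptgds and 0.88 for Apod.

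In the other regions r with the myelin list was lower for both genes. Apod had an r of 0.67 in DG (exact permutation p = 0.0448, adjusted p = 0.537, n = 12), with a rho of 0.63 and 0.51 without the 2 farthest mice, and 0.61 in CT (exact permutation p = 0.261, n = 12), while in CA it had 0.22. Ptgds had 0.30 in DG, 0.39 in CT and -0.18 in CA, and its value in CT went to -0.07 without the 2 farthest mice. Of 36 relations computed 3 had an unadjusted p under 0.05, all with the myelin list, and 0 passed after adjustment over the 36 (smallest adjusted p of an exact permutation = 0.306).

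**Figure D4:**
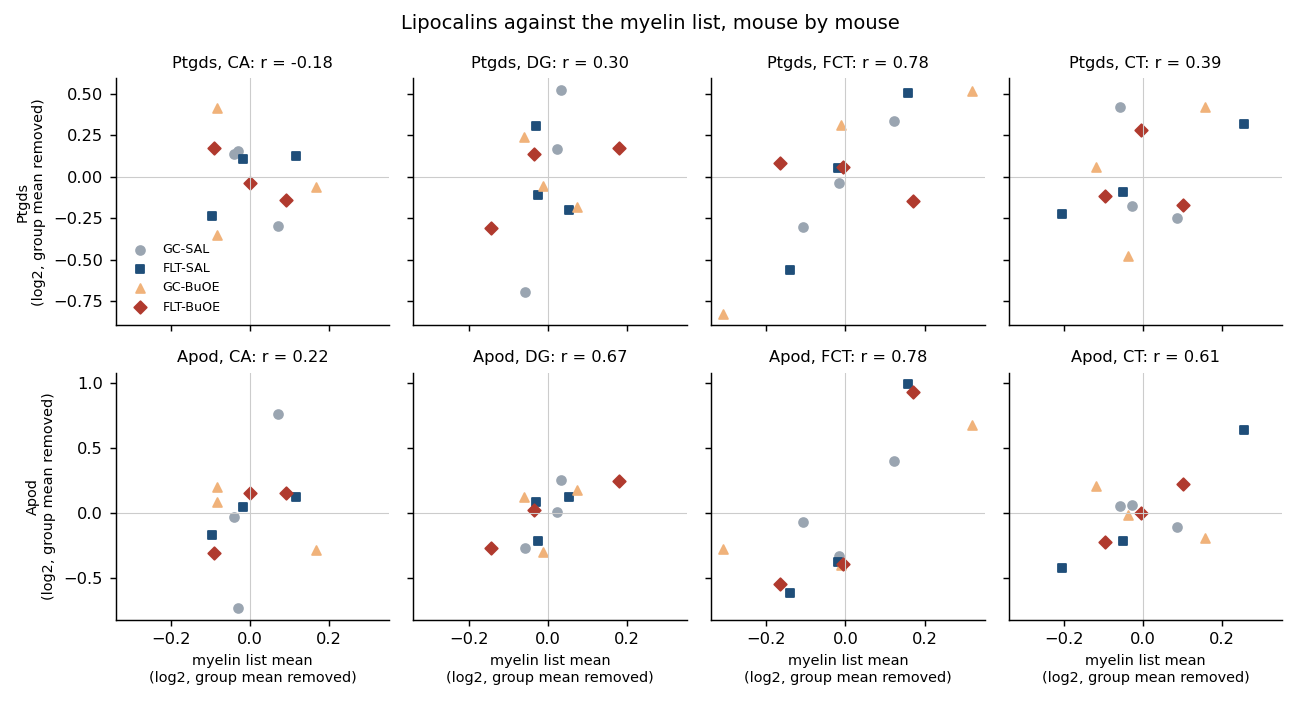
Each mouse's Ptgds (top) or Apod (bottom) against its mean over the myelin list, both as log2 values with the group mean removed, in the 4 regions; colours and shapes give the group. In FCT the points rise together for both genes (r = 0.78 each), and in CA they do not (r = -0.18 for Ptgds and 0.22 for Apod).

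With the meningeal list, which was measured near background, r lay between -0.29 and 0.32. Its r with Ptgds was -0.10, -0.27, 0.32 and -0.28 for CA, DG, FCT and CT, and with Apod -0.29, 0.04, 0.05 and -0.01, none with an unadjusted p under 0.05. The choroid plexus list gave -0.35 to 0.06 with Ptgds and -0.47 to 0.25 with Apod, and the vessel wall list 0.04 to 0.34 and -0.26 to 0.21. Ptgds and Apod correlated with each other at -0.43 in CA, 0.66 in DG (exact permutation p = 0.0602, n = 12), 0.46 in FCT and 0.32 in CT. Before the group means were removed, r with the myelin list over the 12 AOIs was 0.19, 0.32, 0.64 and 0.62 for Ptgds and 0.15, 0.49, 0.83 and 0.77 for Apod, in the same order of regions. These pooled values hold the choosing contrast and the slides, and are a description.

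**Figure D5:**
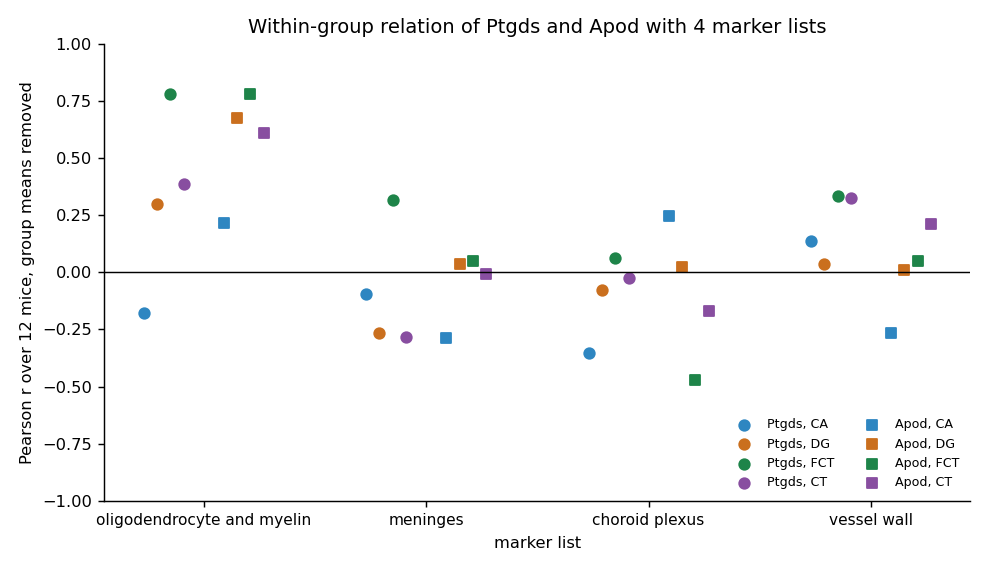
Pearson r over the 12 mice of a region, group means removed (vertical axis), of Ptgds (circles) and Apod (squares) with the mean of each of 4 marker lists; colours give the region. The myelin column runs from -0.18 to 0.78, and the meninges, choroid plexus and vessel wall columns lie between -0.47 and 0.34. After adjustment 0 relations passed.

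A wider look at the genes whose mouse-to-mouse pattern was most like that of the lipocalins covered all 48 AOIs with region-by-group means removed. Among 3731 genes with a mean above 40 units, those closest to Ptgds included Cryab (r = 0.65), a small heat shock protein, Qdpr (0.58), a pteridine reductase, Jun (0.54), an immediate early transcription factor, and Septin4 (0.54), a septin, beside a median r of -0.03 over all of them. Those closest to Apod were Mobp (0.58), Fibcd1 (0.57), a gene of CA1 neurons, Cab39 (0.56), Rhot2 (0.55), a mitochondrial GTPase, and Klf9 (0.51), a transcription factor that glucocorticoids induce, beside a median of 0.04. Apod ranked 108th for Ptgds (r = 0.30). The 48 AOIs come from 12 mice, and these correlations are descriptions.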

How the data were processed

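Ptgds, Apod, the gene lists and the tests were chosen with earlier results of these data known. The authors processed reads with the GeoMx NGS Pipeline and deposited counts of 20175 probes per AOI, without normalization. The authors also deposited a Q3-normalized signal for 15782 genes and 1 negative control, each AOI scaled to 1 upper quartile, so a level is relative to the rest of its AOI. The authors' own fold changes and p-values were not used. Groups were taken from the labels, and each mouse is 1 replicate.

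limma 3.58.1 (R 4.3.3) with a mean-variance trend was run on log2(signal + 1), which understates the change of low genes, over the 12 AOIs of a region, with no filter and Benjamini-Hochberg adjustment over all genes. The 48-AOI fit took the mouse as a random block. edgeR 4.0.16 and DESeq2 1.42.0 were run on the deposited counts. Relations used exact permutations of mice within groups (1296 arrangements). The limma step was tested on simulated data.

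Genes named were both lipocalins, measured members of the prostaglandin, lipocalin and lipid carrier lists, list members that were called or define a list, and the 5 genes most like each lipocalin, apart from some genes that are not reported here; Cdkn1a and Col1a2 were named after their values were seen. Replicate numbers were not used as pairs in the main fits: of 72 correlations between same-numbered mice of 2 groups, 4 were above 0.1 (range -0.188 to 0.139). Between GC-BuOE and FLT-BuOE, 6 of 6 AOIs correlated best with their own number in CA, FCT and CT, and 3 of 6 in DG. Weak pairing is therefore not excluded.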

Additional observations from a re-analysis of the deposited data

How the results depend on the processing

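Over 92 results, 836 values were recomputed under alternatives, and 792 kept their direction and their side of the threshold or moved by less than the spread. All differences here are on the log2 scale. The Ptgds call in DG under BuOE held with a pseudocount of 5, edgeR, DESeq2, robust moderation and without each mouse, but not with the own spread of each gene (1.28). The call in FCT was lost with DESeq2 (1.402), robust moderation (1.45) and own spread (1.45). With 3 mice a group, own spread leaves no gene past the threshold anywhere. BuOE in flight in CT, a description, was -0.98 for Ptgds and -1.19 for Apod with the negative control subtracted, -0.91 and -0.96 with own spread, and -1.06 to -0.76 and -1.18 to -0.64 without 1 mouse at a time. Robust moderation, own spread and the refits of the myelin list were chosen after the data were seen.

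Subtracting the negative control also moved the untested saline differences to 1.82 (Ptgds in CA), 2.47 (Apod in CA) and 1.65 (Apod in CT), took Apod in CT against CA to 1.18, past the threshold, and turned DG against CA to 0.21. Without the 3 FLT-SAL mice, Ptgds in FCT against CT was -0.0094. On log2 CPM the within-group r in DG turned to -0.10 (Ptgds with vessel wall genes) and to -0.12, -0.044 and -0.13 (Apod with meningeal, choroid plexus and vessel wall genes).

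Leaving out 1 mouse at a time turned the sign of small differences. BuOE on the ground ranged from -0.12 to 0.26 (Ptgds in CA), -0.062 to 0.69 (Apod in CA), -0.54 to 0.13 (Ptgds in FCT) and -0.071 to 0.38 (Ptgds in CT), and BuOE in flight from -0.18 to 0.055 (Apod in CA) and -0.081 to 0.18 (Apod in DG). Levels ranged from -0.020 to 0.13 (Ptgds, FCT against CT), -0.10 to 0.11 (Ptgds, DG against CA), 0.58 to 0.82 (Apod, FCT against CA, under the fold threshold without FLT-BuOE mouse 3) and 0.41 to 0.59 (Apod, CT against CA, past it without GC-SAL mouse 2). The flight difference between regions ranged from -0.16 to 0.45 (Ptgds, FCT against DG), -0.025 to 1.08 (Apod, FCT against CA) and -0.34 to 0.074 (Ptgds, CT against CA). The cause of these shifts was not tested.

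With the replicate number as a block no call of either gene changed (Ptgds in DG 1.28, adjusted p = 1.97e-05, limma), while calls over all genes went from 17 to 28 in DG and from 3 to 3 in FCT for flight under BuOE. The block was not used in the main fit, since same-numbered mice were at most weakly correlated. Over all settings, calls for flight under BuOE ran from 0 to 20 in CA (7 as reported), 0 to 28 in DG (17), 0 to 4 in FCT (3) and 0 to 5 in CT (2), and those for BuOE in flight from 0 to 4 (1), 0 to 6 (0), 0 to 31 (5) and 0 to 32 (11).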
